A study of Homo sapiens with 16 samples.

Results

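The genes described here are MIB1, which encodes a ubiquitin ligase of Notch signalling, and 9 core genes of the Notch pathway: the ligand genes JAG1 and DLL1, the receptor genes NOTCH1, NOTCH2 and NOTCH3, the DNA-binding effector RBPJ, and the target genes HES1, HES4 and HEY1. They were taken by symbol from the deposited read counts, and all 10 are among the 20314 genes listed for U251 cells and the 20626 listed for U343 cells. U251 and U343 are established human glioblastoma lines. Each line was transfected at 25 nM with a synthetic mimic of miR-137 (group miR137) or with a negative control mimic (group control). The transfected cells were harvested after 48 hours. RNASeq read total RNA depleted of ribosomal RNA, and RIPSeq read the RNA that came down with antibodies to PABP, the poly(A)-binding protein that sits on the tails of mRNAs. The 2 lines, 2 assays and 2 transfections gave 8 groups of 2 libraries, 16 in all. All cells received a mimic and a lipid transfection reagent, so every comparison is between transfected cells. Each line stands for its own culture only, and U251 and U343 libraries were built with different cDNA kits, so the line and the kit cannot be told apart. The labels do not say that replicates are separate cultures, so p-values measure only the spread between these libraries, which may be technical.

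In Notch signalling a ligand of the Jagged or Delta family on a cell binds a Notch receptor on its neighbour. MIB1 ubiquitinates the ligand and drives its endocytosis, which pulls on the bound receptor and exposes it to cleavage by ADAM proteases and then by gamma-secretase. The freed intracellular domain enters the nucleus, joins RBPJ and a Mastermind protein on DNA, and switches on repressor genes of the HES and HEY families. In the developing brain the pathway holds neural progenitors back from becoming neurons, and in glioma it is known for its link to stem-like cells. The microRNA miR-137 is abundant in neurons. Its mature sequence, from RefSeq on GRCh38.p14 at chr1:98046091-98046113 on the minus strand, is shown because its seed (bases 2 to 8, in capitals) is what a miRNA pairs with in its targets. Among 2545 mature human sequences in the same table, 1 carried this seed, and the mimic's own sequence is not given in the sources used here.
hsa-miR-137-3p: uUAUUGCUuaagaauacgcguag

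Library totals ran from 10156675 to 18224061 reads in U251 RNASeq, from 22359794 to 30731476 in U251 RIPSeq, from 37952273 to 45134766 in U343 RNASeq and from 37736206 to 45055184 in U343 RIPSeq. The libraries of 2 groups stood apart from each other: the median absolute log2 ratio over genes was 0.65 between the U251 RIPSeq controls and 0.23 between the U343 RNASeq miR137 libraries, against 0.06 to 0.18 in the other 6 groups. A list of 12 interferon-response genes summed to 215 and 240 CPM (reads per 1000000 of the scaled library total) in the U251 RNASeq controls and to 11900 and 12600 with miR137. In U343 RNASeq the list summed to 144 and 149 CPM in the controls but to 138 and 12100 CPM in miR137 replicates 1 and 2. It summed to between 181 and 215 CPM in the RIPSeq controls of U251 and to 15000 and 16000 with miR137, and to 139 and 148 against 13900 in each library in U343 RIPSeq. Of 8 glioma and astrocyte markers, all reached 1 CPM in every control library. GFAP, the astrocyte filament gene, stood at 30.1 and 31.5 CPM in the U251 RNASeq controls and at 4530 and 4750 CPM in those of U343. SOX2 and S100B were also higher in the U343 RNASeq controls. VIM, NES, SOX9, CD44 and FABP7 were lower there, CD44 at 789 and 877 CPM against 3780 and 3130 CPM in U251. In U251 RNASeq this marker list summed to 11900 and 12200 CPM in the controls and to 5500 and 5900 CPM with miR137. SOX9 was higher there with miR137 (106 and 111 against 135 and 131 CPM), SOX2 groups overlapped, and the other markers were lower. In U343 RNASeq the marker list summed to 11800 and 12600 CPM in the controls and to 12700 and 14200 CPM with miR137. There VIM, NES, CD44 and FABP7 were higher with miR137, NES at 130 and 138 against 438 and 370 CPM. GFAP (4530 and 4750 against 3280 and 3770 CPM) and SOX9 were lower, and SOX2 and S100B groups overlapped. A list of markers of other cell types, 8 of 10 listed in the tables, summed to between 11.7 and 82.1 CPM in all 16 libraries. Single genes of that list still moved in U343 RNASeq. SYP read 0.962 and 1.09 CPM in the controls and 14.1 and 8.14 CPM with miR137, and COL1A1 1.44 and 1.92 against 8.29 and 11.6 CPM. CDH5 was lower, at 15.3 and 27.5 against 8.8 and 13.3 CPM, and the rest stayed at or below 4.52 CPM there. What part these shifts have in the member values was not tested.

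Levels below are CPM on a scale set by trimmed mean of M-values (TMM) normalization over the 16 libraries and the 16556 genes listed for both lines and kept for the scale. They are compared between libraries and not between genes, since no transcript lengths were used. Log2 fold changes are miR137 minus control from edgeR's quasi-likelihood fit within each line and assay, each with its standard error (SE), and adjusted p-values are Benjamini-Hochberg values over all genes tested there. A gene is called changed when its adjusted p is under 0.05. In bulk RNA, fewer cells of a type and less RNA per cell cannot be told apart.

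MIB1 was lower with miR137 in both lines and fell past the test in 3 of the 4 experiments. It lies at chr18:17575543-17704910 (hg18, plus strand), where the microRNA genes MIR133A1 and MIR1-2 share 87 and 85 bases with it on the other strand. In U251 RNASeq MIB1 stood at 433 and 425 CPM in the controls and at 132 and 104 CPM with miR137. These groups were far apart, on 14284 and 2830 summed reads. The fitted fall was 3.52-fold (log2 fold change -1.82, SE 0.15, n = 2 against 2, adjusted p = 4.59e-07 by edgeR), although in a fit that shared its spread over all 8 U251 libraries the adjusted p was 0.053. In U343 RNASeq MIB1 stood at 94.5 and 80.9 CPM in the controls and at 55.1 and 57.3 CPM with miR137, again without overlap. That fall was 1.58-fold (-0.66, SE 0.11, adjusted p = 0.0265), and the call was lost without control replicate 1 (-0.53, adjusted p = 0.243) or without control replicate 2 (-0.76, adjusted p = 0.194). In U343 RIPSeq the controls read 46.4 and 46.4 CPM and the miR137 libraries 25.9 and 28.1 CPM, a fall of 1.72-fold (-0.78, SE 0.09, adjusted p = 0.000219).

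The U251 RIPSeq libraries did not settle the direction of MIB1. The controls read 40.9 and 181 CPM and the miR137 libraries 52.0 and 46.9 CPM, so the miR137 values lay between the controls. The fitted difference was -1.17 (SE 0.71, adjusted p = 0.429). Leaving out control replicate 1 gave -1.87, leaving out control replicate 2 gave 0.31, and both passed the test (the latter with adjusted p = 1.59e-05), with the lone control assumed to vary like the miR137 pair. In the order of group means, MIB1 was highest in U251 RNASeq control (429 CPM), then U251 RNASeq miR137 (118), U251 RIPSeq control (111), U343 RNASeq control (87.7), U343 RNASeq miR137 (56.2), U251 RIPSeq miR137 (49.4), U343 RIPSeq control (46.4) and U343 RIPSeq miR137 (27.0). The U251 RIPSeq control libraries overlapped with both their neighbours in that order, and no other neighbours overlapped.

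**Figure D1:**
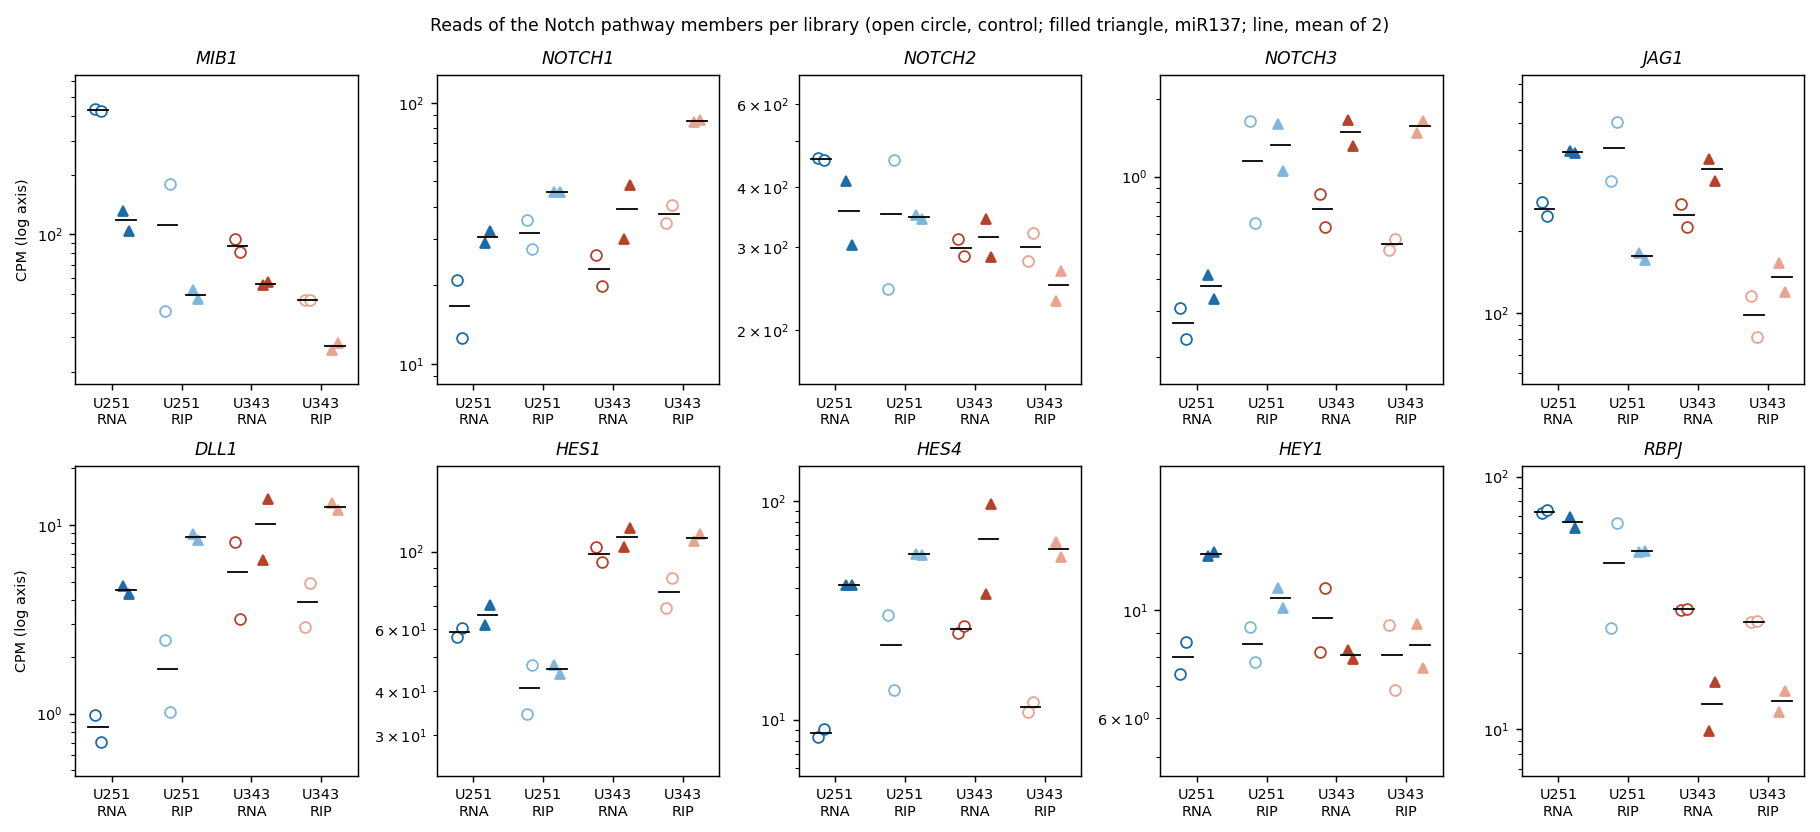
CPM of each of the 10 genes (log axis) in every library, by line and assay; open circles are control libraries, filled triangles are miR137 libraries and the line is the mean of 2. MIB1 drops from 433 and 425 to 132 and 104 CPM in U251 RNASeq, while the 2 U251 RIPSeq controls of MIB1 lie on either side of the miR137 libraries.

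Both ligand genes rose in RNASeq of U251, while in its RIPSeq the JAG1 values were lower with miR137 and missed the threshold. JAG1 (chr20:10566332-10602694, minus strand, hg18) encodes Jagged1 and DLL1 (chr6:170433219-170441622, minus strand) encodes Delta-like 1. In U251 RNASeq JAG1 read 257 and 227 CPM in the controls and 395 and 387 CPM with miR137, without overlap. This rise was 1.66-fold (0.74, SE 0.13, adjusted p = 0.000396), with an adjusted p of 0.0556 in the fit over all 8 U251 libraries. In U251 RIPSeq the controls read 305 and 504 CPM and the miR137 libraries 166 and 157 CPM, so here every miR137 library was the lower. That difference was -1.34 (SE 0.30) with an adjusted p of 0.122, while its unadjusted p was under 0.05 and DESeq2 called it (-1.37). In U343 the JAG1 values were 252 and 207 against 369 and 307 CPM in RNASeq (0.54, SE 0.15, adjusted p = 0.0739) and 115 and 81.7 against 153 and 119 CPM in RIPSeq (0.47, SE 0.17, adjusted p = 0.0509). Neither pair of groups overlapped, and neither passed the edgeR test. DESeq2 called JAG1 higher in both, and in U343 RIPSeq edgeR called it without control replicate 1 (0.72, adjusted p = 0.0194) or miR137 replicate 2 (0.63, adjusted p = 0.0283). In U343 RNASeq edgeR called it without miR137 replicate 2 (0.66, adjusted p = 0.0123).

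DLL1 was a low-count gene that was higher with miR137 in all 4 experiments and passed the test in 2. In U251 RNASeq it rose from 0.986 and 0.703 CPM (16 and 12 reads) to 4.73 and 4.28 CPM (57 and 51 reads), which is 5.47-fold (2.45, SE 0.30, adjusted p = 1.51e-05). In U343 RIPSeq it rose from 2.89 and 4.93 to 13.0 and 12.0 CPM, or 3.21-fold (1.68, SE 0.23, adjusted p = 0.000539). In U251 RIPSeq the controls read 2.44 and 1.02 CPM and the miR137 libraries 8.95 and 8.35 CPM, with no overlap and an adjusted p of 0.112 (2.29, SE 0.48). DESeq2 called this difference. In U343 RNASeq DLL1 read 8.11 and 3.17 CPM in the controls and 6.48 and 13.7 CPM with miR137, groups that overlapped (0.83, SE 0.59, adjusted p = 0.372). That value was 1.67 without control replicate 1, 0.31 without control replicate 2, 1.26 without miR137 replicate 1 and 0.16 without miR137 replicate 2, none of them called.

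Of the receptors, NOTCH1 rose in U251 RNASeq and U343 RIPSeq, NOTCH3 rose in U343 RIPSeq and NOTCH2 was not called by edgeR with all libraries in any of the 4 experiments. NOTCH1 (chr9:138508717-138560059, minus strand, hg18) read 20.9 and 12.5 CPM in the U251 RNASeq controls and 29.1 and 32.3 CPM with miR137, a rise of 1.89-fold (0.92, SE 0.20, adjusted p = 0.00131; 0.0515 in the fit over all 8 U251 libraries). In U343 RIPSeq it rose 2.27-fold, from 34.5 and 40.5 to 84.3 and 85.7 CPM (1.18, SE 0.10, adjusted p = 5.28e-05). The groups did not overlap in either. In U251 RIPSeq its values were 35.6 and 27.6 against 45.7 and 45.7 CPM (0.50, SE 0.27, adjusted p = 0.386). In U343 RNASeq they were 26.2 and 19.8 against 30.1 and 48.4 CPM (0.76, SE 0.29, adjusted p = 0.141), where the larger value belongs to miR137 replicate 2 and the call came without replicate 1 (1.06, adjusted p = 0.00358).

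NOTCH2 (chr1:120255699-120413799, minus strand) stayed between 231 and 461 CPM in all 16 libraries. Its log2 fold changes were -0.32 (SE 0.16) in U251 RNASeq, -0.04 (SE 0.33) in U251 RIPSeq, 0.05 in U343 RNASeq and -0.27 (SE 0.12) in U343 RIPSeq, with adjusted p-values of 0.106, 0.969, 0.788 and 0.0846. Its counts can be shared with the near-identical gene NOTCH2NL, since how reads that match both were counted is not given in the sources used here. Without miR137 replicate 1, NOTCH2 passed the test as lower in U251 RNASeq (-0.57, adjusted p = 0.00152), and without miR137 replicate 2 it did so in U343 RIPSeq (-0.39, adjusted p = 0.0349). NOTCH3 (chr19:15131444-15172792, minus strand) had only 9 reads in the U251 RNASeq controls and 9 with miR137 and was not tested there. In U343 RIPSeq it rose 2.85-fold, from 0.520 and 0.574 CPM to 1.48 and 1.65 CPM (1.51, SE 0.24, adjusted p = 0.00121), on 22 and 22 against 54 and 61 reads. Its values did not overlap in U343 RNASeq either, at 0.853 and 0.639 against 1.66 and 1.31 CPM (0.97, SE 0.27, adjusted p = 0.0772). In U251 RIPSeq NOTCH3 read 1.64 and 0.658 against 1.60 and 1.05 CPM, with overlap (0.18, SE 0.59, adjusted p = 0.894).

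RBPJ, the protein that carries the Notch signal onto DNA, fell in U343 and was not called in U251. The gene lies at chr4:25930430-26042376 (plus strand, hg18), and 4 pseudogenes of its name are in the GRCh38 annotation, so its counts are uncertain where reads match several copies. In U343 RNASeq RBPJ read 29.8 and 30.0 CPM in the controls and 9.85 and 15.4 CPM with miR137. In U343 RIPSeq it read 26.5 and 26.8 CPM against 11.7 and 14.2 CPM. The groups were apart in both assays, with falls of 2.39-fold (-1.26, SE 0.25, adjusted p = 0.0345) and 2.06-fold (-1.04, SE 0.12, adjusted p = 0.000234). The RNASeq call was lost without control replicate 1 (-1.25, adjusted p = 0.242) or control replicate 2 (-1.25, adjusted p = 0.261). In U251 RNASeq RBPJ read 71.6 and 73.5 CPM against 69.5 and 62.7 CPM (-0.09, SE 0.13, adjusted p = 0.568). In U251 RIPSeq the controls, at 25.3 and 65.4 CPM, lay on either side of the miR137 libraries at 50.4 and 50.7 CPM (0.15, SE 0.48, adjusted p = 0.893).

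HES1, HES4 and HEY1 encode the transcriptional repressors that the Notch complex switches on. The promoters of HES1 and HES4 are shown because both hold the letters GTGGGAA, the core sequence that RBPJ binds, given in capitals. Each is the 250 bases before the start of the gene in RefSeq on GRCh38.p14: HES1 is chr3:194135898-194136147 on the plus strand and HES4 is chr1:1000098-1000347 on the minus strand.
HES1: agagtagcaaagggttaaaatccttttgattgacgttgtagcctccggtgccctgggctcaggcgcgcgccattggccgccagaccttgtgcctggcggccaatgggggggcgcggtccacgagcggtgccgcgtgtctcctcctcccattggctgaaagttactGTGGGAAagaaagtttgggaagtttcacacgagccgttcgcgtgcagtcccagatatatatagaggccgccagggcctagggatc
HES4: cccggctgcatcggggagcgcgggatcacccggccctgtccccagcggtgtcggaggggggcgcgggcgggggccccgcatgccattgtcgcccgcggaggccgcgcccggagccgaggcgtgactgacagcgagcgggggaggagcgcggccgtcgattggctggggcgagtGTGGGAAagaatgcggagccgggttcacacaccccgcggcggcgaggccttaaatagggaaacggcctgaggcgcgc

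The motif begins 85 bases before the HES1 start and 77 bases before the HES4 start, and both copies lie in the shared run TGTGGGAAAGAA of 12 bases. Of the 10 genes, 8 had a listed promoter, and DLL1 and HEY1 had none and were not searched. Of the 8, 2 held GTGGGAA or its reverse complement TTCCCAC in the 250 bases before the start, the only part searched. Over all promoters, searched in the same way, the share was 5.43% (1906 of 35116). Of 5 other target genes with a promoter, HES5, HEY2 and HEYL held the motif. A match is a description of these letters and not a bound site.

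Of the 3 target genes, HES4 had the largest fold changes in all 4 experiments. In U251 RNASeq it read 8.32 and 9.02 CPM in the controls and 41.1 and 41.5 CPM with miR137, a rise of 4.90-fold (2.29, SE 0.15, adjusted p = 4.94e-08). In U343 RIPSeq it read 10.8 and 12.1 CPM against 64.8 and 55.5 CPM, a rise of 5.27-fold (2.40, SE 0.11, adjusted p = 4.23e-06). The groups were well apart in both. In U343 RNASeq HES4 read 24.9 and 26.8 CPM in the controls and 37.5 and 96.5 CPM with miR137 (1.36, SE 0.48, adjusted p = 0.117). The difference was 1.89 without miR137 replicate 1 (adjusted p = 6.83e-05) and 0.51 without replicate 2 (adjusted p = 0.0116). In U251 RIPSeq it read 30.2 and 13.6 CPM against 57.1 and 56.9 CPM, with no overlap (1.34, SE 0.46, adjusted p = 0.216).

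HES1 and HEY1 were each called in 1 experiment. HES1 (chr3:195336628-195339090, plus strand, hg18) passed the test in U343 RIPSeq, where it rose 1.42-fold, from 69.3 and 84.1 to 107 and 112 CPM (0.51, SE 0.11, adjusted p = 0.00513). Its values were 57.3 and 60.4 against 61.7 and 70.5 CPM in U251 RNASeq (0.21, SE 0.13, adjusted p = 0.179). They were 34.5 and 47.4 against 47.6 and 44.8 CPM in U251 RIPSeq (0.15, adjusted p = 0.792) and 103 and 93.7 against 103 and 117 CPM in U343 RNASeq (0.15, adjusted p = 0.429). HES1 groups overlapped in U251 RIPSeq and in U343 RNASeq, and no HES1 difference passed the test in these 3 experiments. HEY1 passed the test in U251 RNASeq, where it rose 1.67-fold, from 7.40 and 8.61 to 12.9 and 13.2 CPM (0.74, SE 0.17, adjusted p = 0.00238). In U251 RIPSeq HEY1 read 9.25 and 7.82 against 11.1 and 10.1 CPM (0.28, adjusted p = 0.591), also without overlap. In U343 its groups overlapped in both assays, at 8.22 and 11.1 against 8.29 and 7.93 CPM in RNASeq (-0.27, adjusted p = 0.383) and at 9.34 and 6.86 against 9.35 and 7.60 CPM in RIPSeq (0.06, adjusted p = 0.796).

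**Figure D2:**
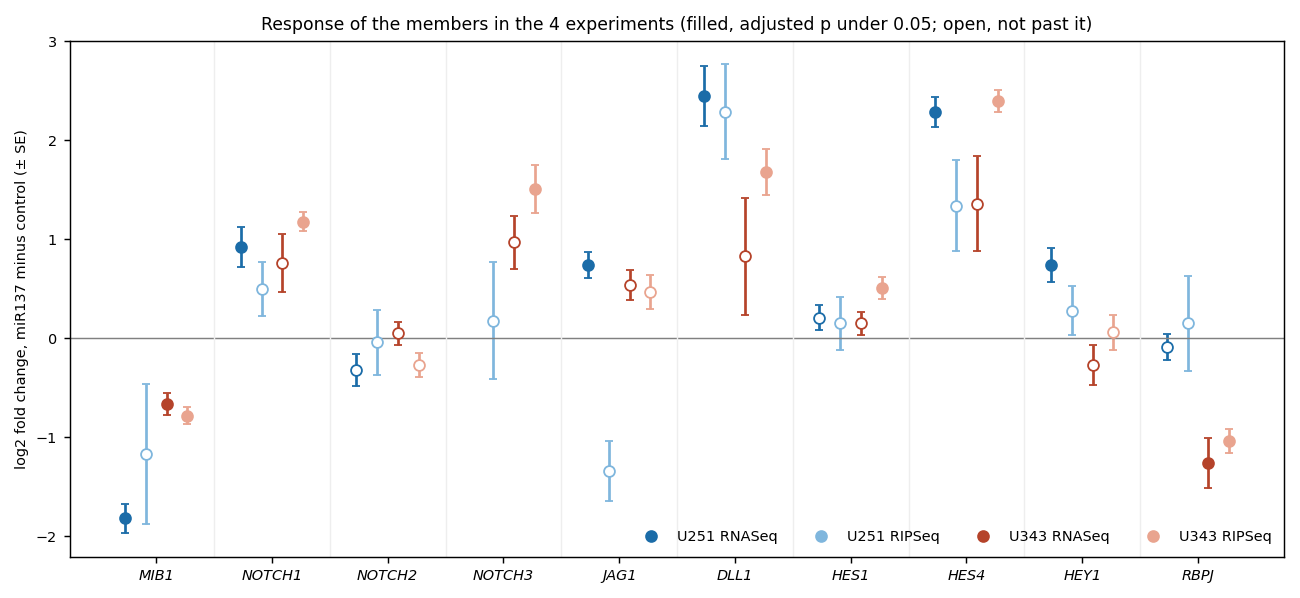
Log2 fold change (miR137 minus control) of the 10 genes in each line and assay; bars are 1 SE and filled points passed an adjusted p of 0.05. MIB1 lies below 0 in all 4 experiments, and HES4 lies between 1.34 and 2.40.

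In U251 RNASeq 1 of the 9 genes tested was called lower (MIB1) and 5 higher (NOTCH1, JAG1, DLL1, HES4 and HEY1), where 29.0% and 28.7% of all tested genes were called lower and higher. In U343 RIPSeq 2 of 10 were lower (MIB1 and RBPJ) and 5 higher (NOTCH1, NOTCH3, DLL1, HES1 and HES4), against 27.8% and 28.5% of all genes. In U343 RNASeq 2 of 10 were lower (MIB1 and RBPJ), against 11.7% of all genes, and 0 were higher, against 8.31%. There, at an unadjusted p under 0.05, the same 2 were lower and 3 higher (NOTCH3, JAG1 and HES4), beside 5551 of 15088 genes in either direction. DESeq2 called the same 2 lower and 3 higher (NOTCH1, JAG1 and HES4), beside 2317 and 1934 of 14502 genes. In U251 RIPSeq edgeR called 0 members in either direction, against 0.263% of all genes lower and 0.944% higher. At an unadjusted p under 0.05 it gave JAG1 as lower and DLL1 and HES4 as higher, beside 2828 of 14087 genes in either direction. DESeq2 called JAG1 lower and DLL1 higher, beside 534 and 589 of 12994 genes. The members' median log2 fold change was 0.74 in U251 RNASeq, 0.16 in U251 RIPSeq, 0.34 in U343 RNASeq and 0.49 in U343 RIPSeq, where the medians of all genes were 0.02, -0.02, 0.02 and 0.00.

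The calls of U251 RIPSeq depended on which controls were kept. Without control replicate 1, 4 members were lower (MIB1, NOTCH2, JAG1 and RBPJ) and 5 higher, and without control replicate 2, 1 was lower (JAG1) and 7 were higher, MIB1, NOTCH2 and RBPJ among them. Of all genes, 35.3% were lower and 32.8% higher in the former and 34.2% and 40.2% in the latter. With miR137 replicate 1 or replicate 2 left out, 0 members were called. JAG1 was called lower in both fits with a lone control, while the direction of MIB1, NOTCH2 and RBPJ followed the control that was kept.

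The study itself called a gene lower when its odds ratio of reads was over 2 with an adjusted p under 0.001 by Fisher's exact test in all 4 pairings of a control with a miR137 library. Such a test compares 2 libraries at a time and does not use replicate spread. By this rule, and its mirror for rises, MIB1 was lower in U251 RNASeq (2.21% of all genes) and RBPJ in U343 RNASeq (2.88%). The RBPJ call was lost with TMM-scaled library totals. None was lower in U251 RIPSeq (1.49% of all genes) or U343 RIPSeq (3.40%). In U251 RIPSeq MIB1 and JAG1 were lower without control replicate 1 and JAG1 without miR137 replicate 1, and in U343 RIPSeq RBPJ was lower without miR137 replicate 2. DLL1 and HES4 were higher in U251 RNASeq (6.14% of all genes), DLL1 in U251 RIPSeq (3.47%), none in U343 RNASeq (1.51%), and NOTCH1, NOTCH3, DLL1 and HES4 in U343 RIPSeq (4.83%). Without control replicate 1, NOTCH1 and JAG1 were also higher in U251 RNASeq and HES4 in U251 RIPSeq, and without control replicate 2 HEY1 was added in U251 RNASeq. In U343 RNASeq DLL1 was higher without control replicate 1 and HES4 without miR137 replicate 1.

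HES4 (chr1:924206-925415, minus strand, hg18) lies 13294 bases from ISG15, a strongly interferon-induced gene, a neighbour looked up after the values were seen. The U343 RNASeq miR137 libraries differ in that response, with ISG15 at 36.0 CPM in replicate 1 and 2270 CPM in replicate 2, against 24.5 and 31.5 CPM in the controls. In replicate 1, where ISG15 was near its control level, MIB1 was at 55.1 CPM and RBPJ at 9.85 CPM, each below both controls. DLL1 in that library was at 6.48 CPM, between its controls, and HES4 at 37.5 CPM, above both. In replicate 2, MIB1 was at 57.3 CPM, RBPJ at 15.4, DLL1 at 13.7 and HES4 at 96.5 CPM. These 4 genes were the higher in the library with high ISG15, MIB1 by little. MIB1 and RBPJ still lay below both controls. Of the other members, NOTCH1 and HES1 were also higher in replicate 2 than in replicate 1. NOTCH2, NOTCH3, JAG1 and HEY1 were lower in replicate 2, JAG1 at 369 and 307 CPM in replicates 1 and 2 and HEY1 by little. With 1 library of each kind these gaps have no replicate check.

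**Figure D3:**
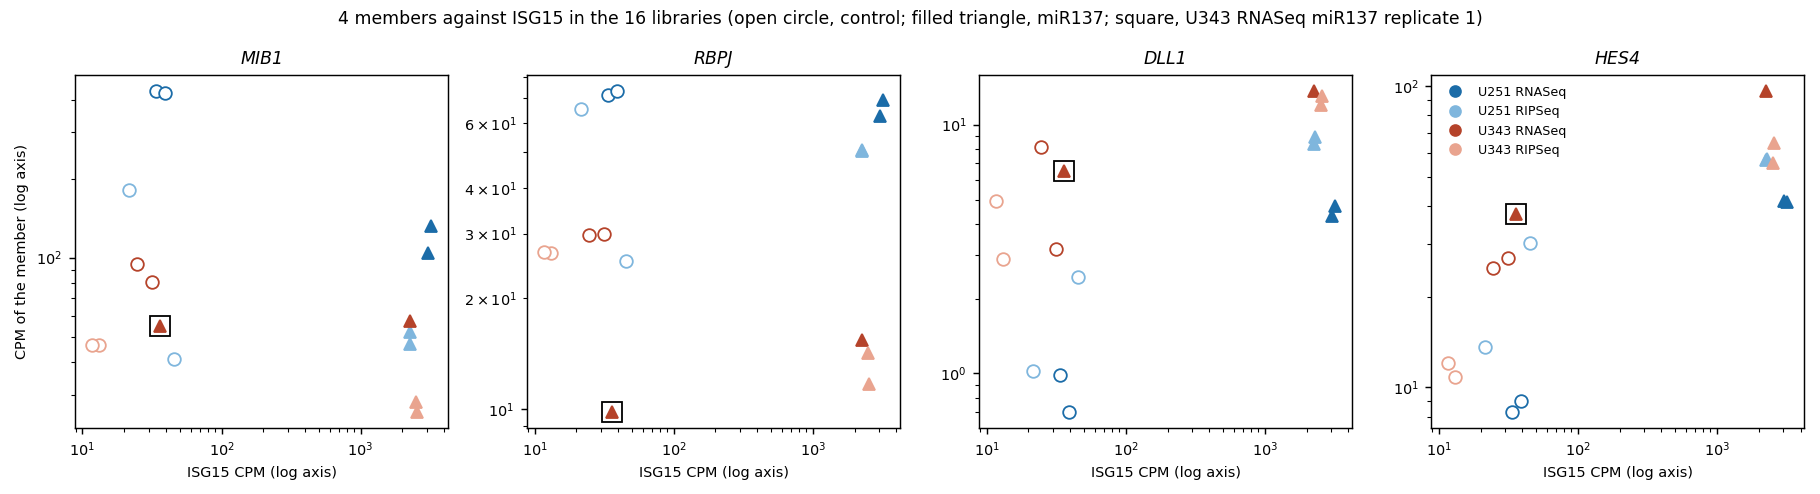
CPM of MIB1, RBPJ, DLL1 and HES4 against ISG15 CPM in the 16 libraries, both axes log; open symbols are control libraries and filled symbols miR137, and the square marks U343 RNASeq miR137 replicate 1. That square sits at an ISG15 level of 36.0 CPM, among the controls, with MIB1 at 55.1 and HES4 at 37.5 CPM.

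The other genes of the pathway came from a list of 59 by role, of which 58 are in the tables. In U251 RNASeq 11 of 48 tested were lower and 23 higher, in U251 RIPSeq 0 and 1 of 53, in U343 RNASeq 4 and 3 of 53, and in U343 RIPSeq 12 and 20 of 52, beside the same shares of all genes as above. By role, the U251 RNASeq calls were 0 lower and 2 higher of 3 ligands, 0 and 3 of 4 genes of ligand endocytosis, 2 and 0 of 4 of receptor glycosylation, 2 and 3 of 9 of receptor cleavage, 2 and 3 of 7 of receptor trafficking and turnover, 2 and 4 of 7 coactivators, 3 and 6 of 11 corepressors, and 0 and 2 of 3 targets. In U343 RIPSeq they were 0 and 0 of 3 ligands, 1 and 1 of 4 of ligand endocytosis, 1 and 1 of 5 of receptor glycosylation, 2 and 3 of 9 of cleavage, 3 and 4 of 9 of trafficking, 1 and 5 of 7 coactivators, 3 and 6 of 12 corepressors, and 1 and 0 of 3 targets. The 7 calls of U343 RNASeq lay in trafficking (2 lower, 2 higher), cleavage (1 lower), coactivators (1 lower) and corepressors (1 higher).

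DTX3L, a ubiquitin ligase of the Deltex family that is also induced by interferon, had the highest fold of these genes where it was called. It rose 18.6-fold in U251 RNASeq (4.22, SE 0.15, adjusted p = 1.12e-10), 31.7-fold in U251 RIPSeq (4.98, SE 0.40, adjusted p = 0.0256) and 9.3-fold in U343 RIPSeq (3.22, SE 0.10, adjusted p = 6.24e-07). In U343 RNASeq it read 71.7 and 64.1 CPM in the controls and 73.9 and 643 CPM in miR137 replicates 1 and 2. DTX3L shares 339 bases with PARP9 on the other strand. Of the pathway genes named below, MAML3, KAT2B, FURIN and DTX2 were also higher in that replicate 2 than in replicate 1. LFNG, NEURL1B, NRARP and DTX1 were lower in replicate 2, LFNG at 107 and 49.7 CPM in replicates 1 and 2. MAML3, a Mastermind coactivator, rose 4.76-fold in U251 RNASeq (2.25, SE 0.16, adjusted p = 1.19e-07), and NRARP, a feedback inhibitor that Notch induces, rose 3.07-fold there (1.62, SE 0.25, adjusted p = 0.000102). In U343 RIPSeq NRARP was called the other way, at 5.16 and 6.58 CPM in the controls and 3.59 and 4.38 CPM with miR137 (-0.56, adjusted p = 0.0341).

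KAT2B, a histone acetyltransferase that works with Notch coactivators, fell in RNASeq of both lines and in U343 RIPSeq. In U251 RNASeq it read 70.7 and 70.4 CPM against 23.5 and 19.8 CPM (3.16-fold lower, log2 fold change -1.66, SE 0.14, adjusted p = 6.12e-07). In U343 RNASeq it read 120 and 125 CPM against 63.4 and 80.8 CPM (1.71-fold lower, -0.78, SE 0.15, adjusted p = 0.0349). In U343 RIPSeq it read 109 and 97.4 CPM against 49.7 and 49.4 CPM (-1.06, adjusted p = 4.83e-05). The U251 RIPSeq difference was not called (-1.21, adjusted p = 0.349). FURIN, the convertase that makes the first cut in Notch receptors, fell 2.95-fold in U343 RNASeq (-1.56, SE 0.11, adjusted p = 0.00652). In U343 RIPSeq it read 109 and 100 against 39.3 and 42.2 CPM. Its U251 RNASeq values were higher, at 56.2 and 48.4 CPM in the controls and 87.5 and 88.1 CPM with miR137. In U251 RIPSeq FURIN was lower without overlap, at 301 and 229 against 126 and 129 CPM, and not called (-1.08, SE 0.26, adjusted p = 0.133). LFNG, a glycosyltransferase that sets which ligands a receptor answers, rose 5.83-fold in U343 RIPSeq (2.54, SE 0.12, adjusted p = 4.82e-06), while in U251 RNASeq it read 18.0 and 16.3 CPM against 8.72 and 7.98 CPM. The regulator DTX1 rose in U343 RNASeq (0.97, SE 0.21, adjusted p = 0.0429) and RIPSeq (1.59, SE 0.25, adjusted p = 0.00107). Its relative DTX2, which shares 4981 bases with FDPSL2A, fell in U343 RNASeq (-1.13, SE 0.21, adjusted p = 0.0299). NEURL1B, a ubiquitin ligase that like MIB1 acts on ligands, fell 2.75-fold in U343 RIPSeq (-1.46, SE 0.25, adjusted p = 0.00187). In U251 RNASeq NEURL1B was called the other way, at 3.27 and 2.58 against 4.82 and 3.86 CPM (0.62, SE 0.25, adjusted p = 0.0493). With U343 RNASeq control 1 left out, and likewise with control 2 left out, KAT2B, FURIN, DTX1 and DTX2 were not called there.

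**Figure D4:**
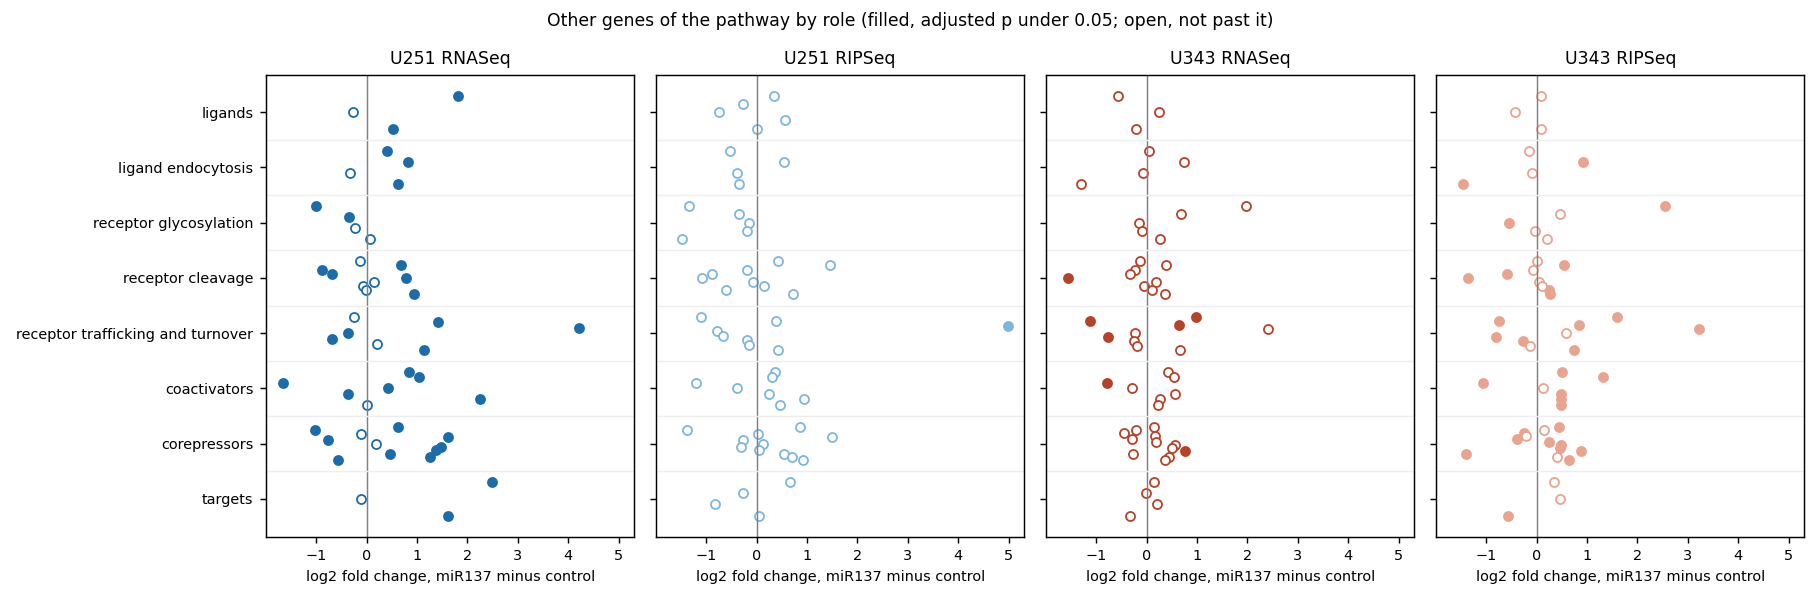
Log2 fold change (miR137 minus control) of the other pathway genes, arranged by role, in 4 panels for the 2 lines and 2 assays; filled points passed an adjusted p of 0.05. DTX3L stands at 4.22 in U251 RNASeq, 4.98 in U251 RIPSeq and 3.22 in U343 RIPSeq.

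In the control libraries alone, PABP-bound RNA can be set against total RNA. In U343 the RIPSeq level was lower than the RNASeq level for MIB1 by 1.85-fold (RIPSeq minus RNASeq -0.89, SE 0.09, adjusted p = 0.000266), for JAG1 by 2.29-fold (-1.19, SE 0.16, adjusted p = 0.000891), for HES4 by 2.22-fold (-1.15, SE 0.10, adjusted p = 0.000152) and for HES1 (-0.33, SE 0.11, adjusted p = 0.0376). NOTCH1 was higher by 1.66-fold (0.73, SE 0.14, adjusted p = 0.0047). Of all genes 24.2% were lower and 24.4% higher. The HES1 call was lost without 1 of the libraries in 3 of 4 cases, and the other 4 were called in each. In U251 0 members were called in this comparison, against 6.14% of genes lower and 7.87% higher. There MIB1 was lower and NOTCH1, NOTCH3, JAG1 and HES4 were higher at an unadjusted p under 0.05, beside 4882 of 13242 genes in either direction. DESeq2 called MIB1 lower and HES4 higher, beside 1670 and 1945 of 13242 genes. The MIB1 difference was -1.90 (SE 0.63, adjusted p = 0.0844) and moved to -1.21 or -3.31, both called, without RIPSeq control replicate 1 or 2.

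The 2 lines also differed in their RNASeq controls, with the line and the cDNA kit not separable. MIB1 was 4.95-fold lower in U343 than in U251 (U343 minus U251 -2.31, SE 0.11, adjusted p = 1.1e-07), RBPJ was 2.45-fold lower (-1.29, SE 0.09, adjusted p = 1.08e-06) and NOTCH2 was lower too (-0.64, SE 0.10, adjusted p = 0.000214). DLL1 was 6.66-fold higher (2.73, SE 0.52, adjusted p = 0.000971), HES4 2.95-fold higher (1.56, SE 0.13, adjusted p = 3.82e-06), and HES1 (0.73, SE 0.09, adjusted p = 6.77e-05) and NOTCH3 (1.45, SE 0.44, adjusted p = 0.0134) were higher as well. NOTCH1, JAG1 and HEY1 were not called. In this comparison 39.9% of all genes were lower and 44.9% higher, and the median gene differed by 0.104. The NOTCH3 call was lost without U251 control replicate 1 or 2 or U343 control replicate 1 and by DESeq2.

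**Figure D5:**
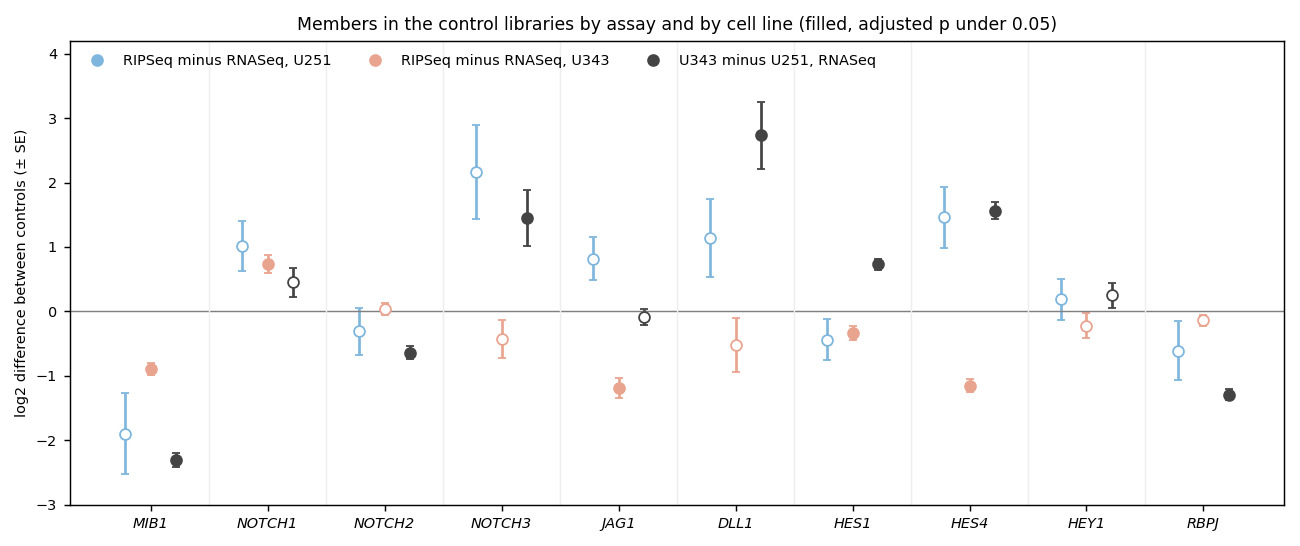
Log2 differences of the 10 genes among control libraries: RIPSeq minus RNASeq in each line, and U343 minus U251 in RNASeq; bars are 1 SE and filled points passed an adjusted p of 0.05. MIB1 is lower in RIPSeq than in RNASeq and lower in U343 than in U251, by 2.31 on the log2 scale in the latter.

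Whether the response to miR137 differed between lines was tested as an interaction, U343 minus U251. In RNASeq it was called for MIB1 (1.15, SE 0.22, adjusted p = 0.00756), whose fall was the smaller in U343, and for RBPJ (-1.17, SE 0.27, adjusted p = 0.0172) and HEY1 (-1.02, SE 0.28, adjusted p = 0.0295). Of all genes 25.2% were called in either direction. The MIB1 difference was called without any 1 of the 8 libraries, with values from 1.04 to 1.41. The RBPJ call was lost without U251 control 1, U251 control 2, U251 miR137 1, U343 control 1 or U343 control 2, and the HEY1 call without any 1 of the U251 libraries or U343 control 2. In RIPSeq the interaction was called for JAG1 (1.86, SE 0.37, adjusted p = 0.0452; 3.28% of all genes), and it was lost in 6 of the 8 fits that left out a library. For MIB1 the RIPSeq interaction was 0.43 (SE 0.75, adjusted p = 0.791).

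Whether it differed between assays was tested in the same way, RIPSeq minus RNASeq. In U251 edgeR called 0 members (0.134% of all genes). At an unadjusted p under 0.05 it gave 1 member, beside 2688 of 14210 genes in either direction. DESeq2 called 1 member, beside 403 genes lower and 314 higher of 12557. Both times this was JAG1, at -2.12 (SE 0.33, adjusted p = 0.0598), called without U251 RIPSeq control 1 (-2.32) or control 2 (-1.68). For MIB1 the assay difference was 0.61 in U251 (adjusted p = 0.647) and 2.07, called, without RIPSeq control 2. In U343 edgeR called 0 members (0.00649% of all genes), and MIB1 differed by -0.12 (adjusted p = 0.691). At an unadjusted p under 0.05 it gave 0 members, beside 2712 of 15413 genes in either direction. DESeq2 called 0 members, beside 272 genes lower and 127 higher of 10930.

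By pattern over the 16 libraries, each gene's log2(CPM + 1) centred within its line and assay, the 5 genes most like MIB1 among 12192 were LASS6 (Pearson r = 0.978), KLHL5 (0.978), TMEM33 (0.976), SNAP23 (0.976) and KAT2B (0.976). Of the members, NOTCH2 (0.767) and RBPJ (0.573) had positive values, JAG1 (-0.042) and HES1 (-0.234) lay near 0 or below, and HEY1 (-0.673), NOTCH1 (-0.724), DLL1 (-0.759) and HES4 (-0.834) were negative. The genes share their libraries, depth and treatment, and the uneven U251 RIPSeq controls enter all of these values.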

How the data were processed

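Per the labels and the study's methods, the authors aligned GAIIx reads of 36 cycles with RMAP to hg18 and deposited raw counts of reads per RefSeq gene, its transcripts merged into 1 model; treatment of reads matching several copies and use of strand are not given in the sources used here. A gene listed more than once (1 in U251) kept its first line. Members were matched by symbol, and an additional U251 replicate named in the methods was not analysed here. The tables pool no samples and hold no normalized values. Counts were TMM-normalized and filtered with filterByExpr, and groups of 2 libraries were compared with edgeR 4.0.16 (limma 3.58.1, R 4.3.3) by quasi-likelihood tests with Benjamini-Hochberg adjustment over all tested genes at 0.05; the SE is the log2 fold change divided by the root of F. Interactions were terms in fits of 8 libraries. Fold changes come from fits within an experiment and differ slightly from ratios of the CPM printed. The study's Fisher rule was rerun on raw counts with Python 3.11.15, pandas 2.3.3, numpy 2.4.6 and scipy 1.17.1, with matplotlib 3.10.9 for plots. Alternatives were DESeq2 1.42.0, upper-quartile scaling, no filter beyond 1 read, a mean of 50 reads or more, a replicate block, joint fits and leaving out each library. The scripts were tested on simulated data. Other pathway genes were named when called, with 50 or more reads on average, at most the 4 with the largest changes per experiment; the 5 genes most like MIB1 were named by r. The members and lists were chosen with earlier results of these data known. NOTCH4 is not analysed here.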

Additional observations from a re-analysis of the deposited data

Results flagged for a closer look

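By the interaction test (U343 minus U251, edgeR quasi-likelihood, n = 2 libraries per group), 4 genes were called as differing between the lines in their response to miR137. Of all genes, 25.2% were called in RNASeq and 3.28% in RIPSeq, in either direction. In RNASeq the difference was 1.15 for MIB1 (adjusted p = 0.00756), which was 3.52-fold lower in U251 and 1.58-fold lower in U343. It was -1.17 for RBPJ (adjusted p = 0.0172), called lower in U343 and at -0.09 in U251, and -1.02 for HEY1 (adjusted p = 0.0295), called higher in U251 and at -0.27 in U343. In RIPSeq it was 1.86 for JAG1 (adjusted p = 0.0452), at -1.34 in U251 and 0.47 in U343, neither called by edgeR in its own line with all libraries. Only the MIB1 call was kept whichever library was left out, as described above. The line and the cDNA kit cannot be told apart.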

How the results depend on the processing

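Depth limits NOTCH3 in U251 (9 against 9 reads in RNASeq) and DLL1 (12 to 58 reads per U251 control), and 2 libraries per group limit every p-value. Of 73 values per setting, 64 kept direction and side of the threshold with DESeq2, 70 with upper-quartile scaling, 69 without a filter and 64 with the replicate block, as did 46 of 47 at 50 reads and 44 of 52 in joint fits; causes were not tested. The replicate block rests on number only (correlations of same-numbered deviations 0.03 to 0.28 over 2 pairs). Counts of members called were 3 (U251 RNASeq), 3 (U251 RIPSeq) and 4 (U343 RNASeq) in joint fits. By DESeq2 they were 2 in U251 RIPSeq and 5 in U343 RNASeq. The replicate block called 1 in U251 RIPSeq, and in U343 RIPSeq it also called NOTCH2 lower and JAG1 higher. Of all genes, the U343 RNASeq joint fit called 2768 lower and 2265 higher of 15413. The replicate block in U343 RIPSeq called 4787 and 4858 of 14866. MIB1 in U251 RNASeq was -1.80 in the joint fit (adjusted p = 0.053). RIPSeq against RNASeq in U251 gave 2 members by DESeq2 and 3 with the replicate block, the latter beside 2101 genes lower and 1935 higher of 13242. The U251 assay interaction gave 1 by DESeq2, and the gene counts of both DESeq2 fits are given above. The RIPSeq line interaction gave 0 members without a filter, beside 162 genes lower and 286 higher of 20031. With the replicate block it gave 0, beside 44 and 75 of 15959. The study's rule gave 5 lower calls at an odds ratio of 1.5 and 1 with TMM totals, and 11 higher calls at 1.5 against 7. At 1.5, all-gene calls in U251 were 1024 lower and 2372 higher in RNASeq and 745 and 1370 in RIPSeq, of 20314. In U343 they were 1321 and 732 in RNASeq and 1677 and 1760 in RIPSeq, of 20626. With TMM totals 793 and 382 genes were lower in U251 RNASeq and RIPSeq, and 553 and 730 in those of U343. RBPJ in U251 RNASeq turned to 0.05 with upper-quartile scaling, which moved all calls there from 3780 lower and 3749 higher to 3001 and 4588 and the median gene to 0.156. NOTCH2 in U251 RIPSeq turned to 0.01 without a filter and 0.02 with the replicate block. In U251 RIPSeq all-gene calls were 37 lower and 133 higher, 534 and 589 by DESeq2, 5 and 54 without a filter, 273 and 529 with the replicate block and 1213 and 1142 in the joint fit. In U251 RNASeq the joint fit gave 1336 and 1615.

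Leaving out 1 library at a time, members called ranged from 0 to 9 in U251 RIPSeq, 0 to 5 in U343 RNASeq, 0 to 9 for RIPSeq against RNASeq in U251, 0 to 6 and 0 to 2 for the assay interactions in U251 and U343, 1 to 5 and 0 to 7 for the line interactions in RNASeq and RIPSeq, and 2 to 4 for lower and 7 to 9 for higher calls by the study's rule. In U251 RIPSeq the values ranged from -1.87 to 0.31 for MIB1, -0.40 to 0.53 for NOTCH2, -0.28 to 1.00 for NOTCH3, -0.04 to 0.46 for HES1 and -0.37 to 1.04 for RBPJ. In U343 RNASeq they ranged from -0.76 to -0.53 for MIB1 and -0.08 to 0.17 for NOTCH2, and HEY1 in U343 RIPSeq ranged from -0.15 to 0.29. The MIB1 line interaction in RIPSeq ranged from -0.98 to 1.12. With 1 library left, it is assumed to vary like the other groups. In U251 RIPSeq the calls among all genes also rose without control replicate 1 or control replicate 2, as given above. In U343 RNASeq they also rose without either miR137 library. The ranges of members called are therefore not read as particular to these genes. For the other comparisons, calls among all genes with a library left out were not set beside these ranges.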
